A study of Mus musculus with 18 samples.

Results

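DNA replication genes were followed across the 18 mouse RNA-seq libraries of a study of PIK3CA and p53 mutations in the oral and esophageal epithelium. The 39 genes, taken by symbol out of the 26143 genes in the deposited table, cover origin licensing, helicase activation, the polymerases and primase, the sliding clamp and its loader, Okazaki fragment joining, nucleotide supply, chromatin assembly, entry into S phase and the replication checkpoint. All 39 symbols were found, and all 39 were among the 15235 genes that passed the filter on low values. The lowest level of any of them in any library was 4.72 CPM (Ccne2 in WT 1; CPM are the reads of a gene scaled to the library total), so none entered the test only through a group in which it was high.

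The E20/p53 libraries (n = 6) are mouse tongue with the alleles LSL-PIK3CAH1047R and LSL-p53+/R172H together with K14-Cre. The E20 libraries (n = 6) are tongue with LSL-PIK3CAH1047R, and the p53 libraries (n = 3) are tongue heterozygous for LSL-p53+/R172H. The WT libraries (n = 3) are wild type esophagus, so that in each comparison with WT the tissue and the genotype cannot be told apart. An LSL allele carries a stop element between loxP sites and stays silent until Cre recombinase removes it. The keratin 14 promoter of K14-Cre is active in the basal cells of stratified epithelia. The labels name a Cre for E20/p53 alone, and they give no age, sex or treatment. The series title speaks of tumours started with 4NQO, a chemical carcinogen, and the labels do not say which libraries, if any, were exposed to it. The labels do not say whether replicates were separate animals or cultures. The p-values therefore reflect the variation among the sequenced libraries alone, part of which may be technical.

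Before a cell divides, the origin recognition complex, Cdc6 and Cdt1 load the MCM2 to MCM7 helicase ring onto DNA, which licenses each origin once. Cyclin E with its kinase and the E2F transcription factors start S phase, when Cdc45, the GINS complex and Mcm10 turn the loaded rings into moving forks. Many of these genes are E2F targets and are transcribed around the start of S phase, and in stratified epithelium their products mark the dividing basal layers.

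The libraries did not form 4 even groups. Replicates 1 to 3 and 4 to 6 of E20/p53 stood apart from each other, as did those of E20, so values are given below for 6 blocks of 3 libraries (n = 3 for each block mean ± SD). Over the 39 genes, Pearson's r between libraries was 0.994 to 0.998 inside a block, 0.890 to 0.967 between both blocks of a group and 0.848 to 0.981 between groups. These are correlations across genes, which are not independent replicates. Depth was 14592044 to 18176060 reads per library. Markers of the labelled squamous epithelium were low or absent in most blocks. The 12 keratinocyte markers summed to 8.75 to 1225 CPM in E20/p53 and 10.4 to 120 CPM in E20, against 7.75 to 9.78 CPM in p53 and 193 to 203 CPM in WT, and Krt4, a keratin of the upper layers of mucosal epithelium, was at most 0.0561 CPM in any block. In E20/p53 1-3 Krt14 stood at 483 ± 10.6 CPM, while in E20/p53 4-6 it stood at 0.199 ± 0.0586 CPM and Krt5 at 0. The 8 fibroblast markers summed to 2893 to 31599 CPM in E20/p53, 21942 to 26755 CPM in E20, 12055 to 13325 CPM in p53 and 20458 to 23224 CPM in WT. In E20/p53 the range was 2893 to 2999 CPM in block 1-3 and 28385 to 31599 CPM in block 4-6. Fn1 made up most of the sum in WT (19916 CPM) and in E20/p53 1-3 (2842 CPM). Col3a1 averaged 26.8 and 3733 CPM in the E20/p53 blocks, 5916 and 4835 CPM in the E20 blocks, 2154 CPM in p53 and 35.9 CPM in WT. Col1a2 was at 1344 CPM in WT and 1.58 CPM in E20/p53 1-3. The 10 skeletal muscle markers summed to 6.41 to 730 CPM in E20/p53, 666 to 745 CPM in E20, 2238 to 2285 CPM in p53 and 11.4 to 11.9 CPM in WT. In the E20 blocks Des (554 and 640 CPM) and Chrna1 (153 and 46.2 CPM) made up nearly all of the sum. Myod1 averaged 153 CPM in p53 and 9.46 CPM in E20/p53 4-6, and at most 0.157 CPM in any other block. Acta1 averaged 179 and 17.3 CPM in the same blocks, and at most 0.840 CPM in any other. The sum of the 4 smooth muscle markers averaged 422 and 3528 CPM in the E20/p53 blocks, 4609 and 941 CPM in the E20 blocks and 2629 CPM in p53, against 949 CPM in WT. Acta2 made up most of that sum in every block, and Myh11 averaged at most 0.802 CPM in any block. The 5 endothelial markers summed to at most 4.73 CPM and the 5 leukocyte markers to at most 0.504 CPM in any library, with Cd3e and Adgre1 at 0 in all. These lists moved with the groups and the blocks, and their part in the results below was not tested.

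E2F proteins bind short GC-rich words near the start of S phase genes, so the promoters of the 6 members whose levels changed most, by the median absolute log2 change over the 6 comparisons, are shown here. They come from RefSeq on GRCm38.p6 and run from 250 bases before the RefSeq start to 50 after it, 5′ to 3′ on the strand of the gene. The E2F words searched, on either strand, were TTTGGCGC, TTTCCCGC, TTTGCCGC and TTTCGCGC, and capitals mark their core, which is the same words without the first T. The windows are Ccne1 at chr7:38107441-38107740 (minus strand), Rrm2 at chr12:24708004-24708303 (plus), Clspn at chr4:126556730-126557029 (plus), Tk1 at chr11:117825965-117826264 (minus), Cdc6 at chr11:98907901-98908200 (plus) and Mcm5 at chr8:75109259-75109558 (plus).
Ccne1: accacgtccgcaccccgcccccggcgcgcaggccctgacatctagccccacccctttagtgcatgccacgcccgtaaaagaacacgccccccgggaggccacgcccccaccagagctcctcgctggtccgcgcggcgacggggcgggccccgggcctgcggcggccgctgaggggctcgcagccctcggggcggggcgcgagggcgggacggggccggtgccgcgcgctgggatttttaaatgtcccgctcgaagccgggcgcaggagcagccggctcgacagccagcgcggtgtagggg
Rrm2: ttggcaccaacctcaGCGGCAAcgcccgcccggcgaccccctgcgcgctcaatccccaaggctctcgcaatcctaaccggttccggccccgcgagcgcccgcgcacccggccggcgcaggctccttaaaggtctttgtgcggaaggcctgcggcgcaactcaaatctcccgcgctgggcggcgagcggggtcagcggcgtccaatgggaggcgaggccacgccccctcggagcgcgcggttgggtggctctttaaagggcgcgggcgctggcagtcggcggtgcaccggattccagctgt
Clspn: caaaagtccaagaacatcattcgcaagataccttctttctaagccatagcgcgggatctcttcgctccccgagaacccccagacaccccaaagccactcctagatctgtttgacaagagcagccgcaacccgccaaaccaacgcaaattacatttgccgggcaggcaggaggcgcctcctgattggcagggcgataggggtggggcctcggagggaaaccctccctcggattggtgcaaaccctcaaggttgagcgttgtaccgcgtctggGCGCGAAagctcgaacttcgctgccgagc
Tk1: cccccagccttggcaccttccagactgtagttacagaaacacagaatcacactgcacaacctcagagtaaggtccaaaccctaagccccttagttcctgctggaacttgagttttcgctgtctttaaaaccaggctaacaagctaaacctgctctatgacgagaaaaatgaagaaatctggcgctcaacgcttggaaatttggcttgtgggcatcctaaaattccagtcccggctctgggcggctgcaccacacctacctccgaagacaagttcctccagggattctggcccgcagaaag
Cdc6: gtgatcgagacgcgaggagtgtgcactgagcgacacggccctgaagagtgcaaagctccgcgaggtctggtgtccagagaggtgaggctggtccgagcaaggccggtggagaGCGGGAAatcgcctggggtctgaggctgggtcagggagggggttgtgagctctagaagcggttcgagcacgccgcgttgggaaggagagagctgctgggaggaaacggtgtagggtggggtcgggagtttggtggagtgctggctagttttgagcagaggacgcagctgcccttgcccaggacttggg
Mcm5: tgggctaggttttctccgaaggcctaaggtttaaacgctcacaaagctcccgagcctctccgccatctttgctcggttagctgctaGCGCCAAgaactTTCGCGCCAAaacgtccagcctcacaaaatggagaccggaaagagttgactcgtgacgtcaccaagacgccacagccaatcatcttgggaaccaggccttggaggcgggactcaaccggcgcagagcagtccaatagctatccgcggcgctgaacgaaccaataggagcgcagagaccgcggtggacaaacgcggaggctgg

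Mcm5 held 3 core matches, at 164, 152 and 149 bases before the start, and the last pair overlap by 4 letters. Rrm2 held 1 at 235 bases before the start, Cdc6 1 at 138 bases before it and Clspn 1 at 22 bases after it, while Ccne1 and Tk1 held none in these windows. These distances are from the RefSeq start, and GENCODE places the gene starts elsewhere. Its Cdc6 gene begins at chr11:98907801, so the whole Cdc6 window lies inside that gene. Its Mcm5 gene begins at chr8:75109569, past the end of the window, and its Tk1 gene (minus strand) at chr11:117826092, within the window. Windows around the GENCODE starts were not searched. Of the 39 members, 33 were in the promoter table, and 22 of these (66.7%) held a core word, against 10.9% of all 27025 genes with a window. The full words, each of which contains a core word, occurred in 15 of the 33 (45.5%) and in 2.6% of all genes. The word CCAAT, which NF-Y binds, occurred on either strand in 19 of the 33 (57.6%) and in 41.1% of all genes. The median content of A and T was 38.7% over the members' windows and 46.7% over those of all genes (the lowest window where a gene has several), and the shares were not adjusted for it. A match describes the letters and is not a binding site.

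The 39 genes were lowest in WT and varied over a narrow range among the tongue blocks. Their summed level was 3515 ± 143 CPM in E20/p53 1-3, 3788 ± 22.9 CPM in E20/p53 4-6, 3290 ± 80.4 CPM in E20 1-3, 2992 ± 108 CPM in E20 4-6, 4135 ± 110 CPM in p53 and 1447 ± 23.1 CPM in WT. WT was the lowest block for 38 of the 39 genes, and for E2f1 the lowest was E20 4-6. The p53 block was the highest for 18 genes, E20/p53 4-6 for 11 and E20/p53 1-3 for 8, and each E20 block for 1, Rrm1 in E20 1-3 and Mcm6 in E20 4-6. Among the 5 tongue blocks E20 4-6 was lowest for 26 genes.

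**Figure D1:**
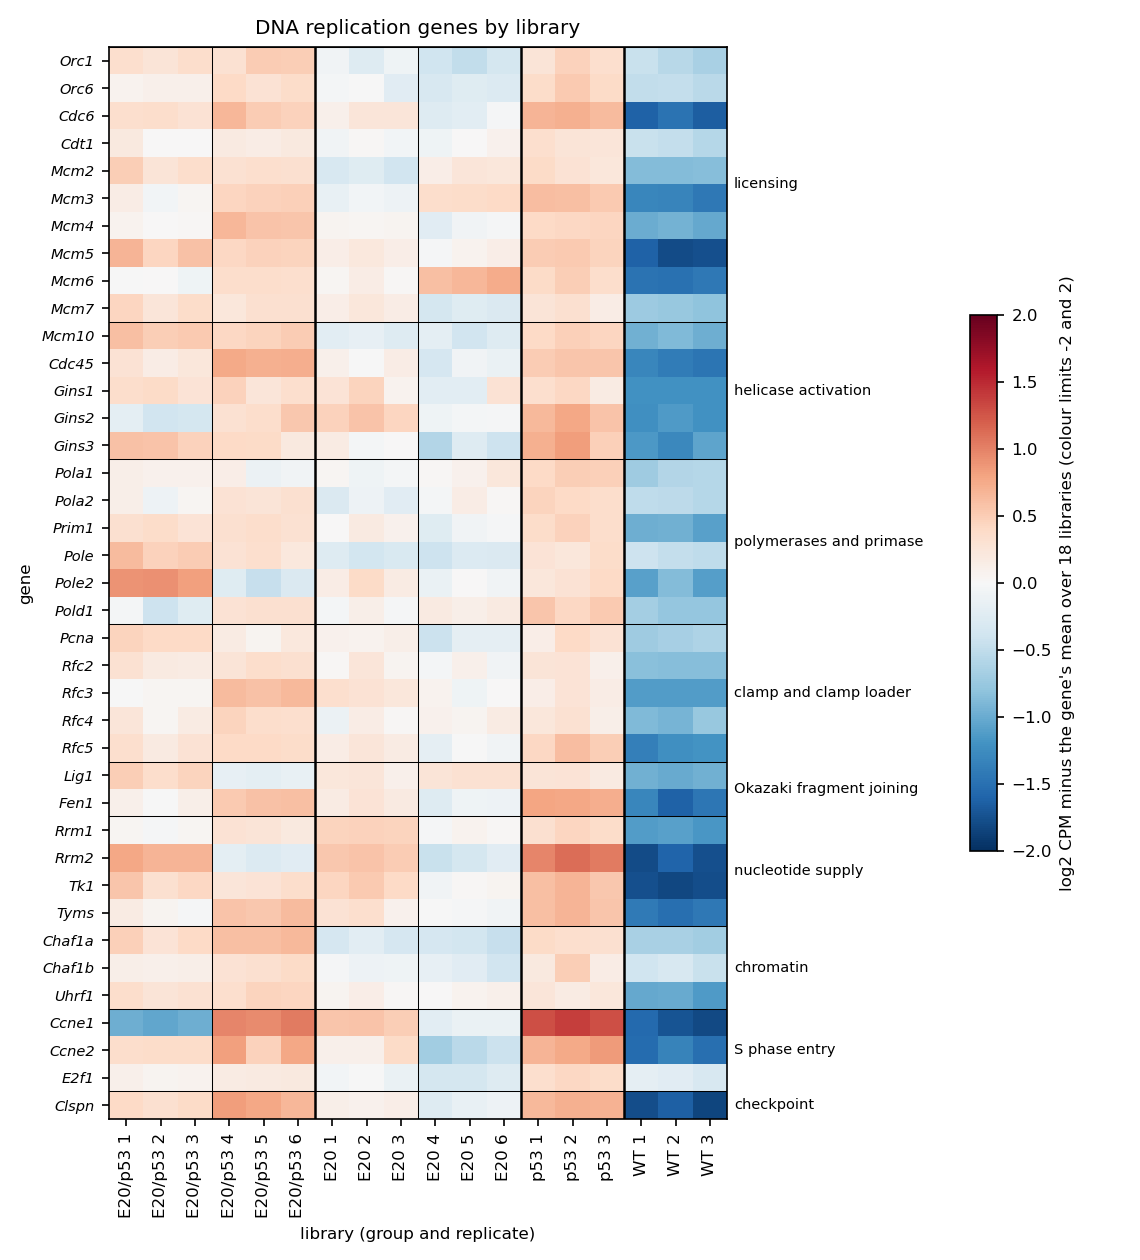
Level of each of the 39 DNA replication genes (rows, grouped by role) in each library (columns), as log2 CPM minus the mean of that gene over the 18 libraries. The WT columns are the lowest for nearly every gene, and Ccne1, Rrm2, Pole2 and Mcm6 differ between blocks that carry the same group label.

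Across the 5 tongue blocks the ratio of the highest to the lowest block mean ran from 1.24 to 5.00 with a median of 1.61, and 6 of the 39 genes reached a ratio of at least 2. Measured on log means, 15.4% of the members reached that ratio, against 51.8% of all genes tested. With WT included the ratio ran from 1.62 to 8.12 with a median of 2.96, and 33 of the 39 genes reached 2. The libraries are of bulk tissue or cells, so fewer dividing cells and less of these RNAs per cell cannot be told apart.

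E20/p53 and E20 share the PIK3CA allele. By the labels they differ in the p53 allele and in K14-Cre, which cannot be told apart. In E20/p53 against E20 the replication genes were mostly higher in E20/p53, by modest amounts. Of the 39, 24 rose and 0 fell (limma, Benjamini-Hochberg adjusted p under 0.05; a log2 change is that of the first group over the second), where 23.0% of all tested genes rose and 19.6% fell. Their median log2 change was 0.28, against 0.05 over all genes, and the highest was 0.84. For 16 of them all 6 E20/p53 libraries exceeded all 6 E20 libraries (11.3% of all tested genes), and for 0 all lay below (11.2%). No member was called at 2-fold or more (6.66% of all tested genes rose and 8.32% fell by that much).

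The genes that rose came from most steps of replication. Of 10 licensing genes 8 rose, all but Mcm3 and Mcm6. Orc1, the subunit of the origin recognition complex that hydrolyses ATP, was between 19.6 and 23.2 CPM (median 20.8) in the 6 E20/p53 libraries, against 11.5 to 15.5 CPM (median 13.2) in the 6 E20 libraries, without overlap (log2 change 0.65, SE 0.09, adjusted p = 1.9e-05). Of 5 helicase activation genes 3 rose. Mcm10, a fork protein that helps switch the loaded helicase on, ranged from 49.8 to 57.2 CPM in E20/p53 (block means 54.7 ± 2.33 and 51.5 ± 1.75), against 28.8 to 33.4 CPM in E20 (32.4 ± 0.96 and 31.0 ± 2.02). The lowest E20/p53 library lay well above the highest E20 library, and both blocks of each group were alike (log2 change 0.74, SE 0.05, adjusted p = 1.5e-08). Gins3, a GINS subunit, rose with a log2 change of 0.61 (SE 0.12, adjusted p = 7.7e-04), and Cdc45, the partner of GINS in the active helicase, with 0.52 (SE 0.11, adjusted p = 0.00167).

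The 39 genes lie on 14 chromosomes in GENCODE on GRCm38, with Mcm10 at chr2:4989714-5012791 (minus strand), Chaf1a at chr17:56040439-56072289 (plus) and Pole at chr5:110286306-110337474 (plus). Chaf1a, the large subunit of the histone chaperone CAF-1 that places histones on new DNA, showed the highest log2 change of the 39. It was at 113, 98.2, 107, 124, 123 and 128 CPM in E20/p53 1 to 6, against 64.6, 69.8, 64.0, 64.3, 62.7 and 59.0 CPM in E20 1 to 6. The groups did not overlap (log2 change 0.84, SE 0.06, adjusted p = 3.5e-08). In GENCODE, 48.6% of the Chaf1a transcript overlaps Ubxn6 on the other strand, and the strand setting of the counting is not given in the sources used here. Ubxn6 itself did not pass the test (log2 change 0.16, adjusted p = 0.138 by limma). The other chromatin genes, Chaf1b, its CAF-1 partner, and Uhrf1, whose product helps to copy DNA methylation onto new strands, also rose. Pole, the catalytic subunit of the leading strand polymerase, was at 108, 95.5, 98.8, 84.6, 87.3 and 80.4 CPM in E20/p53 1 to 6, against 52.2 to 57.9 CPM (median 56.5) in E20. Here too the groups were apart (log2 change 0.72, SE 0.07, adjusted p = 3.4e-07), and Prim1 of primase and Pola2 of polymerase alpha rose with it. Pole2, the second subunit of the same enzyme, did not pass the test and is described with the blocks below.

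The clamp gene Pcna and 3 of the 4 clamp loader genes rose, with Rfc3 the exception. Clspn, the adaptor that passes the replication checkpoint signal to Chk1, averaged 64.0 ± 1.66 and 84.0 ± 4.94 CPM in the E20/p53 blocks against 53.7 ± 0.82 and 44.1 ± 2.57 CPM in the E20 blocks (log2 change 0.59, SE 0.10, adjusted p = 1.7e-04). Of the S phase entry genes E2f1 and the cyclin gene Ccne2 rose. Ccne2 averaged 17.5 ± 0.18 and 22.1 ± 2.97 CPM in the E20/p53 blocks against 15.7 ± 1.76 and 9.35 ± 0.85 CPM in the E20 blocks, so that the groups overlapped. Its log2 change of 0.70 (SE 0.17, adjusted p = 0.00318) dropped to 0.32 (adjusted p = 0.0597) when E20 4-6 was left out. None of the 4 nucleotide supply genes (Rrm1, Rrm2, Tk1, Tyms) and neither Okazaki gene (Lig1, Fen1) passed the test.

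For 23 members every E20/p53 block mean lay above every E20 block mean (21.1% of all tested genes), and for 0 it lay below (17.4%). Without E20/p53 1-3, 29 members rose and 2 fell, where 29.2% and 23.8% of all tested genes did. Without E20/p53 4-6, 23 rose and 4 fell (33.7% and 31.4% of all). Without E20 1-3, 24 rose and 1 fell (24.1% and 20.7%), and without E20 4-6, 19 rose and 1 fell (3136 and 2690 of the 15235 genes). With the 6 block means as the only values, which leaves 2 residual degrees of freedom, 0 members and 0 of all tested genes were called by limma, 3 had an unadjusted p under 0.05 and 32 were positive, as in the fit of all libraries.

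**Figure D2:**
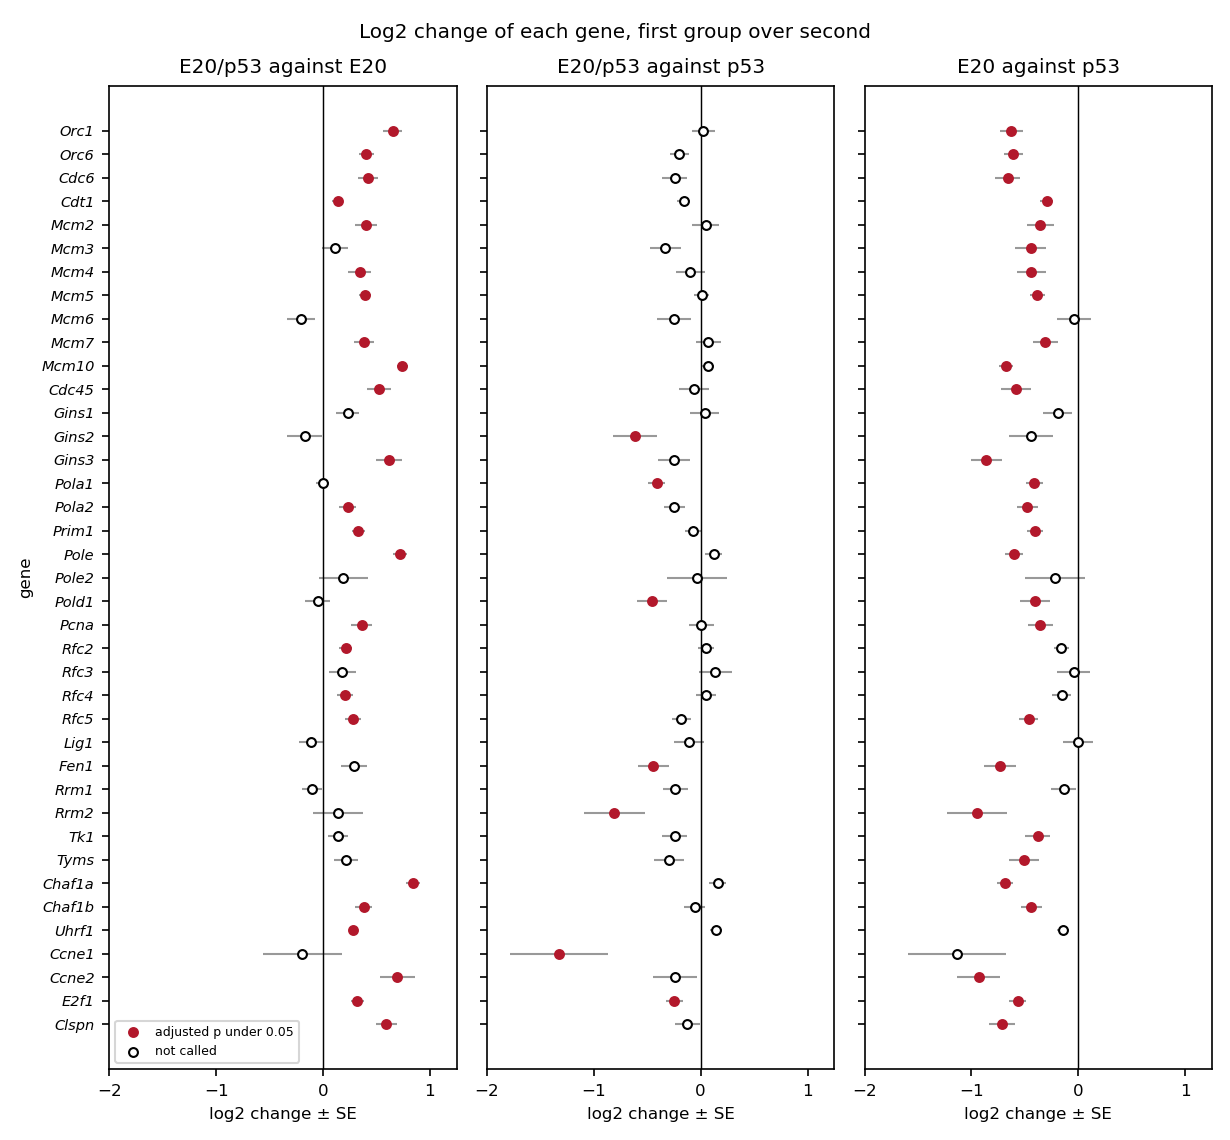
Log2 change of each gene in E20/p53 against E20, E20/p53 against p53 and E20 against p53 (points, with the SE as bars; filled points have an adjusted p under 0.05 by limma). Filled points lie to the right of 0 in the first panel, where 24 genes rose, and to the left in the others, where 7 and 28 genes fell.

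E20/p53 and p53 share the p53 allele. By the labels they differ in the PIK3CA allele and in K14-Cre, which cannot be told apart either. In E20/p53 against p53, 0 of the 39 genes rose and 7 fell, where 12.9% of all tested genes rose and 12.9% fell. The median log2 change was -0.12. For 12 members every E20/p53 library lay below every p53 library (16.6% of all tested genes), and for 1, Uhrf1, above (15.9%). At 2-fold or more, 1 member fell, Ccne1, and 0 rose (6.66% and 3.72% of all tested genes). The genes that fell came from several steps. Ccne1, which encodes the cyclin that drives entry into S phase, was at 24.7, 23.5, 24.7, 95.8, 93.4 and 99.99 CPM in E20/p53 1 to 6, against 119, 127 and 119 CPM in p53 1 to 3. All 6 lay below p53, the first block far below it (log2 change -1.33, SE 0.46, adjusted p = 0.0423), and without that block the log2 change was -0.34 (adjusted p = 0.222). Rrm2, the small subunit of ribonucleotide reductase whose level sets its activity in S phase, was at 288, 268, 269, 146, 138 and 143 CPM in E20/p53 1 to 6, against 329, 364 and 346 CPM in p53. Here the second block was the lower one (log2 change -0.81, SE 0.28, adjusted p = 0.0474), and without it the log2 change was -0.33 (adjusted p = 0.256).

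Pola1, the catalytic subunit of polymerase alpha, had the lowest adjusted p of the 7. It averaged 62.1 ± 0.83 and 57.2 ± 5.31 CPM in the E20/p53 blocks, against 75.9, 81.6 and 80.4 CPM in p53. The highest E20/p53 library, at 63.3 CPM, lay below all p53 libraries (log2 change -0.41, SE 0.08, adjusted p = 9.6e-04). Gins2 fell by 0.62 on the log2 scale (SE 0.20, adjusted p = 0.0357), Pold1, the catalytic subunit of the lagging strand polymerase, by 0.46 (SE 0.14, adjusted p = 0.0256), and Fen1, the flap nuclease, by 0.44 (SE 0.15, adjusted p = 0.0375). The Gins2 and Fen1 transcripts overlap genes on the other strand, and whether reads were shared was not tested. The fall of E2f1 was 0.24 (SE 0.08, adjusted p = 0.0332). These falls were smaller without E20/p53 1-3, with a log2 change of -0.26 for Gins2 (adjusted p = 0.24), -0.19 for Pold1 (adjusted p = 0.0493), -0.19 for Fen1 (adjusted p = 0.247) and -0.19 for E2f1 (adjusted p = 0.113) by limma. With each E20/p53 block left out in turn, Pola1 and Pold1 of the 7 passed both times. The count of 7 was not stable. It was 1, Pola1, when any 1 of the 3 p53 libraries was left out (7.97% to 8.54% of all tested genes fell), and 2 or 3 without any of E20/p53 1 to 3 (10.9%). It was 5 without the block E20/p53 1-3 (16.2%), of which 3 are among the 7, and 17 without E20/p53 4-6 (32.6%), of which 6 are. With a replicate block 8 fell (20.7%), of which 4 are among the 7, and Gins2, Fen1 and E2f1 did not pass (adjusted p = 0.0593, 0.0572 and 0.0847 by limma). Without 1 block of E20/p53, 3 members also rose, namely Rfc3, Chaf1a and Uhrf1 without E20/p53 1-3 (17.9% of all tested genes rose) and Pole, Pole2 and Lig1 without E20/p53 4-6 (31.3%).

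In E20 against p53, which differ in both alleles, replication genes were lower in E20. Of the 39, 28 fell and 0 rose, where 16.4% of all tested genes fell and 14.5% rose, with a median log2 change of -0.44. For 29 members every E20 library lay below every p53 library (23.8% of all tested genes), and for 0 above (21.7%). No member was called at 2-fold or more (6.56% of all tested genes fell and 5.76% rose by that much). Licensing had 9 of 10 genes lower, all but Mcm6, and the polymerases and primase 5 of 6. Cdc6, the loader of the MCM ring, averaged 31.3 ± 1.81 and 24.4 ± 2.20 CPM in the E20 blocks against 43.7 ± 1.10 CPM in p53 (log2 change -0.66, SE 0.12, adjusted p = 4.2e-04). Gins3 fell by 0.86 (SE 0.15, adjusted p = 3.6e-04), Fen1 by 0.73 (SE 0.15, adjusted p = 0.0013), Clspn by 0.71 (SE 0.12, adjusted p = 2.9e-04), Chaf1a by 0.69 (SE 0.08, adjusted p = 6.4e-06) and Mcm10 by 0.68 (SE 0.06, adjusted p = 9.8e-07) on the log2 scale.

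The largest falls among the called members were those of Rrm2 and Ccne2, both lower in E20 4-6 than in E20 1-3. Rrm2 was at 244, 250, 237, 123, 131 and 144 CPM in E20 1 to 6, against 329, 364 and 346 CPM in p53. Every E20 library lay below p53, and E20 4-6 held less than E20 1-3 (log2 change -0.95, SE 0.28, adjusted p = 0.0183). Without E20 4-6 the log2 change was -0.51 (adjusted p = 0.187), and the call was also lost without p53 2 (adjusted p = 0.0671) or p53 3 (adjusted p = 0.0582). Ccne2 averaged 15.7 ± 1.76 and 9.35 ± 0.85 CPM in the E20 blocks against 23.2 ± 1.44 CPM in p53 (log2 change -0.93, SE 0.20, adjusted p = 0.00229). Ccne1 lay below p53 in all 6 E20 libraries (70.6 ± 1.95 and 43.5 ± 1.23 CPM in the E20 blocks, against 122 ± 4.32 CPM in p53) and did not pass the test, although its log2 change of -1.13 was the largest of the 39 (adjusted p = 0.0699 by limma). Its SE rests on the spread in all 4 groups, and Ccne1 averaged 24.3 and 96.4 CPM in the E20/p53 blocks. Ccne1 was called lower with only the 2 compared groups, with total reads as the scaling and without E20 1-3. The count of 28 was 30 without E20 1-3 (21.4% of all tested genes fell), 22 without E20 4-6 (15.3%) and 20 to 22 when a p53 library was left out (11.6% to 12.1%). E20/p53 against p53 and E20 against p53 use the same 3 p53 libraries, and E20/p53 against E20 and E20 against p53 the same 6 E20 libraries, so these comparisons are not independent.

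**Figure D3:**
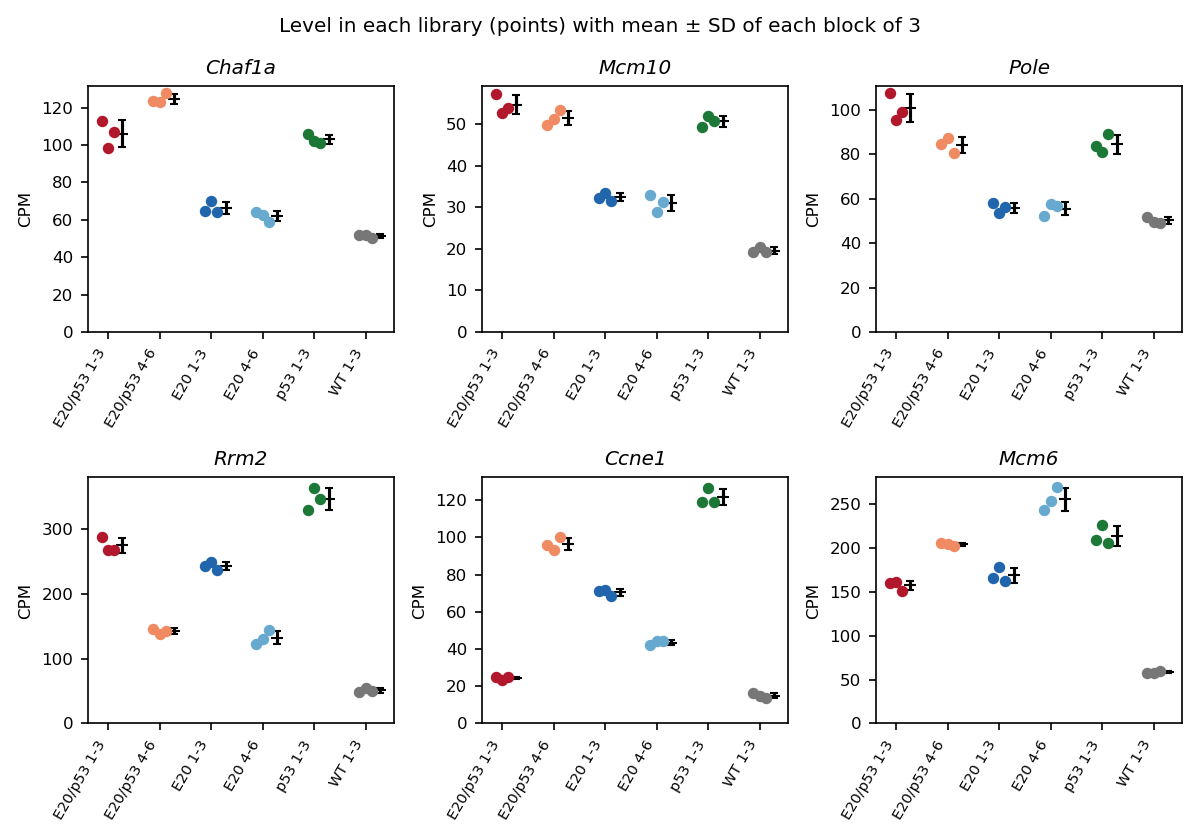
CPM of Chaf1a, Mcm10, Pole, Rrm2, Ccne1 and Mcm6 in each library (points) by block, with the mean ± SD of each block of 3. For Chaf1a, Mcm10 and Pole both E20/p53 blocks lie above both E20 blocks, while for Rrm2, Ccne1 and Mcm6 blocks of the same group lie apart.

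All tongue groups exceeded WT esophagus. All 39 genes rose in p53 against WT (29.3% of all tested genes), 31 of them by at least 2-fold (15.5%), with a median log2 change of 1.37. In E20 against WT 36 rose (29.0%), 21 by at least 2-fold (13.4%), with a median of 1.09, and E2f1, Pole and Chaf1b did not pass. All 39 rose in E20/p53 against WT (26.5%), 29 by at least 2-fold (10.9%), with a median of 1.30. None fell by limma in p53, E20 or E20/p53 against WT, where 24.9%, 26.4% and 21.6% of all tested genes fell, and 0 had an unadjusted p under 0.05 in that direction. Every library of the first group lay above every WT library for 39, 36 and 39 members in p53, E20 and E20/p53, against 43.2%, 33.8% and 26.7% of all tested genes. The same 3 WT libraries serve all of these comparisons.

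The largest log2 change of the 39 was that of Clspn in E20/p53 against WT, of Tk1 in E20 against WT and of Ccne1 in p53 against WT. Mcm5, a subunit of the helicase ring, was at 180, 153, 170, 150, 156 and 153 CPM in E20/p53 1 to 6, at 124, 131, 124, 111, 119 and 124 CPM in E20 1 to 6 and at 161, 162 and 153 CPM in p53, against 36.9, 32.8 and 33.4 CPM in WT. Each tongue library held more than 3 times the level of any WT library, and Mcm5 had the lowest adjusted p of the 39 in all of these comparisons. The log2 change was 2.22 for E20/p53 (SE 0.07, adjusted p = 3.5e-13), 1.82 for E20 (SE 0.07, adjusted p = 3.7e-12) and 2.21 for p53 (SE 0.08, adjusted p = 3.6e-12). Clspn averaged 64.0 ± 1.66 and 84.0 ± 4.94 CPM in the E20/p53 blocks, against 14.7 ± 1.07 CPM in WT (log2 change 2.31, SE 0.12, adjusted p = 2.1e-10). Tk1, the thymidine salvage kinase of S phase, averaged 134 ± 10.9 and 121 ± 4.93 CPM in the E20/p53 blocks, 135 ± 5.93 and 99.6 ± 4.12 CPM in the E20 blocks and 151 ± 7.07 CPM in p53, against 28.8 ± 0.67 CPM in WT.

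Ccne1 and Rrm2 had the largest log2 changes of the 39 in p53 against WT. Ccne1 averaged 122 ± 4.32 CPM in p53 against 16.5, 14.6 and 13.9 CPM in WT 1 to 3 (log2 change 3.02, SE 0.53, adjusted p = 1.8e-04), and Rrm2 averaged 347 ± 17.2 CPM against 51.0 ± 3.51 CPM in WT (log2 change 2.76, SE 0.33, adjusted p = 3.9e-06). In E20 against WT the largest was that of Tk1 (log2 change 2.01, SE 0.12, adjusted p = 5.7e-10). At the other end stood E2f1, the transcription factor of the E2F family, at 57.9, 55.6, 56.2, 60.3, 61.1 and 61.7 CPM in E20/p53 1 to 6, at 51.4 ± 2.26 CPM in E20 1-3, at 42.1, 42.1 and 44.8 CPM in E20 4 to 6 and at 67.7, 71.9 and 69.4 CPM in p53, against 47.7, 46.0 and 43.0 CPM in WT. The E20/p53 and p53 libraries all lay above WT, while E20 4-6 lay within or below the WT range.

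A few members differed between blocks of one group, which is described here without a test. The ratio of block means, E20/p53 4-6 over E20/p53 1-3, ran from 0.43 to 3.96 with a median of 1.09, and Ccne1 and Pole2 were the members that differed by at least 2-fold. Pole2 was at 34.6, 35.0 and 32.9 CPM in E20/p53 1 to 3 and at 15.7, 13.4 and 15.1 CPM in E20/p53 4 to 6, at 21.8 ± 2.02 CPM in E20 1-3, at 17.0, 18.7 and 17.6 CPM in E20 4 to 6 and at 21.7, 22.5 and 24.6 CPM in p53, against 8.75, 10.2 and 8.66 CPM in WT. The E20/p53 blocks thus held both the highest and the lowest Pole2 levels of the tongue libraries. Between the E20 blocks the ratio of 4-6 to 1-3 ran from 0.54 to 1.51 with a median of 0.84, and 0 members reached 2-fold. Mcm6, at chr1:128331590-128359664 (minus strand), had the highest ratio there, at 166, 178 and 163 CPM in E20 1 to 3 and 243, 253 and 270 CPM in E20 4 to 6, above every p53 library (209, 226 and 206 CPM).

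Some partner genes of one enzyme or step did not keep a fixed ratio. The ratio of reads was worked out only for pairs with a member that differed between blocks of one group (Rrm2, Ccne1, Pole2 or Mcm6). Ribonucleotide reductase joins Rrm1 and Rrm2, and the reads of Rrm2 over Rrm1 were 0.80 ± 0.03 and 0.35 ± 0.01 in the E20/p53 blocks, 0.52 ± 0.01 and 0.38 ± 0.03 in the E20 blocks, 0.78 ± 0.01 in p53 and 0.32 ± 0.02 in WT. The cyclin E genes Ccne1 and Ccne2 stood at 1.39 ± 0.04 in E20/p53 1-3, against 3.03 to 5.26 for the means of the other blocks. The ratio of Pole2 to Pole was 0.34 ± 0.02 and 0.18 ± 0.02 in the E20/p53 blocks, 0.39 ± 0.05 and 0.32 ± 0.01 in the E20 blocks, 0.27 ± 0.01 in p53 and 0.18 ± 0.02 in WT. These ratios are of reads within a library, do not depend on the scaling and are not corrected for transcript length.

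**Figure D4:**
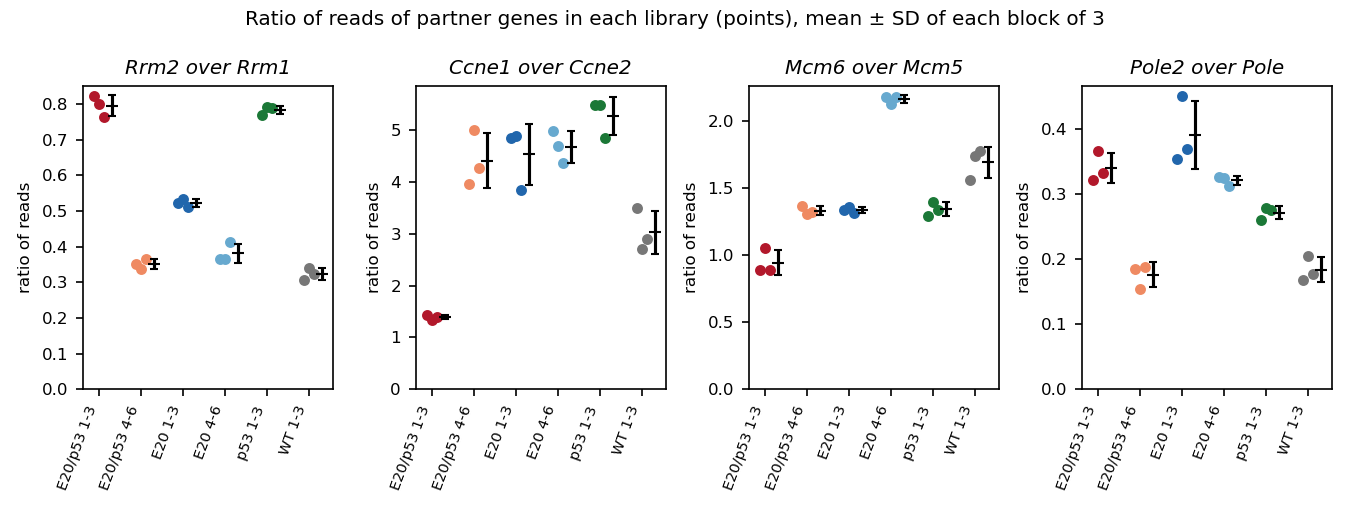
Ratio of the reads of partner genes in each library (points) by block, with the mean ± SD of each block of 3. Rrm2 over Rrm1 is near 0.80 in E20/p53 1-3 and p53 and at or below 0.52 in the other blocks, and Ccne1 over Ccne2 is lowest in E20/p53 1-3.

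The 6 subunits of the MCM2 to MCM7 ring, which enters DNA as a complex of equal parts, are compared here per transcript length. In CPM per kb of the principal transcript the highest subunit exceeded the lowest 1.39-fold in E20/p53 1-3, 1.70-fold in E20/p53 4-6, 1.94-fold in E20 1-3, 2.60-fold in E20 4-6, 1.84-fold in p53 and 2.39-fold in WT. Without division by length the CPM ratios were lower in every block, from 1.17-fold in E20/p53 1-3 to 2.56-fold in E20 4-6. In E20 4-6 the span lay between Mcm6 at 87.8 and Mcm7 at 33.7 CPM per kb, and in WT between Mcm7 at 24.4 and Mcm5 at 10.2 CPM per kb. Mcm6 over Mcm5 reads were 0.94 ± 0.09 and 1.33 ± 0.03 in the E20/p53 blocks, 1.34 ± 0.02 and 2.17 ± 0.03 in the E20 blocks, 1.34 ± 0.05 in p53 and 1.69 ± 0.12 in WT.

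Of 62 other S phase genes, 36 rose and 1 fell in E20/p53 against E20 (23.0% and 19.6% of all tested genes), with a median log2 change of 0.33. Dck, the deoxycytidine kinase of nucleotide salvage, rose with a log2 change of 0.83 (SE 0.07, adjusted p = 7.6e-08), and Chtf18, of an alternative clamp loader, with 0.76 (SE 0.09, adjusted p = 6.4e-06). Pold2 rose by 0.74 (SE 0.05, adjusted p = 3.6e-08), and Pold4, a small subunit of the same polymerase delta, fell by 0.60 (SE 0.10, adjusted p = 1.3e-04). Against p53, 7 rose and 9 fell in E20/p53, shares near those of all tested genes (12.9% each), with a median of -0.03, and E2f2 had the largest fall (log2 change -1.42, SE 0.41, adjusted p = 0.0176). Also against p53, 2 rose and 35 fell in E20 (14.5% and 16.4% of all), with a median of -0.38. The risers there were Pold4 and Rrm2b, the p53-inducible small subunit of ribonucleotide reductase. Against WT, 48 rose and 2 fell in p53 (29.3% and 24.9% of all), 38 rose and 6 fell in E20 (29.0% and 26.4%), and 50 rose and 1 fell in E20/p53 (26.5% and 21.6%). These names among the 62 were picked by size after their values were seen.

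Cell cycle genes outside the list moved with the replication genes in part. In E20/p53 against E20, Bub1, Aurka, Top2a and Ccnb1, which act in or before mitosis, rose, and Mki67 and Cdk1 did not pass (adjusted p = 0.803 and 0.21 by limma). Mki67, whose product marks cycling cells, averaged 564 ± 5.48 and 279 ± 14.5 CPM in the E20/p53 blocks, 358 ± 24.7 and 484 ± 4.35 CPM in the E20 blocks and 373 ± 14.96 CPM in p53, against 158 ± 7.51 CPM in WT. Its order over the tongue blocks was not that of the summed replication genes, which were highest in p53, and in both groups with 2 blocks the block with more Mki67 had the lower sum. All 6 of these genes rose in each of the 3 comparisons with WT.

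**Figure D5:**
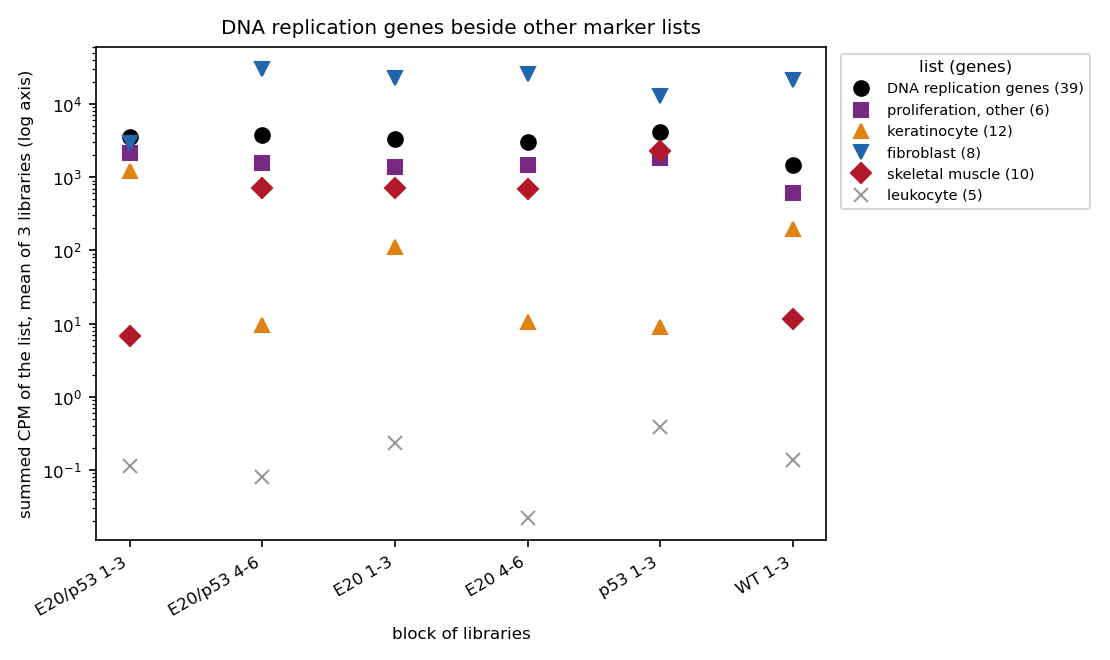
Summed CPM (log axis) of the 39 DNA replication genes and of other marker lists, as the mean of each block of 3 libraries. The replication genes lie between 1447 and 4135 CPM in every block, while the keratinocyte, fibroblast and skeletal muscle lists differ between blocks by factors of 10 or more.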

How the data were processed

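RNA was sequenced in 18 mouse libraries with a stranded TruSeq mRNA kit. Per the submitters' processing notes the tools were bcl2fastq 1.8.4, Trimmomatic and featureCounts on mm10. Not given in the sources used here are aligner, annotation, strand setting and scaling method. The authors deposited log2 values, each the read number plus 1 divided by a library total that they had rescaled, since 100% of the values gave whole reads within 0.001. The rescaled total was between 0.939 and 1.12 of the reads counted. Levels in CPM are the recovered reads over the rescaled total.

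limma 3.58.1 in R 4.3.3 was fitted to these log2 values with a trend of variance on mean, 4 group means over 18 libraries (14 residual degrees of freedom), 6 comparisons, and Benjamini-Hochberg adjustment over the 15235 genes with at least 0.635 CPM (10 reads at the median depth) in 3 libraries and 15 reads in all. An adjusted p under 0.05 was called. Count models were not used, as the unit is log2. A change is on the scale of log2 of reads plus 1, which understates that of low genes. The fit was tested on simulated independent libraries with planted changes and no blocks, so that run does not cover the differences between blocks.

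The members, the other gene lists, the blocks and the tests were chosen with earlier results of these data known. All members may be named with their levels. A change is printed for up to 8 called members by size and 2 by adjusted p in each comparison. Positions and principal transcripts come from GENCODE M21 on GRCm38. Alternatives were other scalings, pseudocounts and filters, a fit of the compared groups alone, no trend, a replicate block, block means, a 2-fold minimum, and each library or block left out.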

Additional observations from a re-analysis of the deposited data

How the results depend on the processing

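With 6 block means (2 residual degrees of freedom) the counts were 0 higher in E20/p53 against E20, 0 lower in E20/p53 against p53, 0 lower in E20 against p53, and 0 higher in each comparison with WT. Of all genes, limma then called 0 to 8 in the 6 comparisons. Calls of at least 2-fold numbered 0 higher in E20/p53 against E20, 1 lower in E20/p53 against p53, 0 lower in E20 against p53 and 21 higher in E20 against WT. In E20/p53 against E20 the count of members lower, 0 otherwise, was 1 (Mcm6) with the replicate block, 2 (Pole2, Lig1) without E20/p53 1-3, 4 (Mcm6, Gins2, Pold1, Ccne1) without E20/p53 4-6, 1 (Mcm6) without E20 1-3 and 1 (Rrm1) without E20 4-6. In E20/p53 against p53 the count of members higher was 2 with total reads as the scaling (2375 of the 15235 genes). It was 3 without E20/p53 1-3 (17.9% of all tested genes) and 3 without E20/p53 4-6 (31.3%). With 1 library left out it was 0 to 2 (7.29% to 15.5%). The count of members lower there was 17 without E20/p53 4-6 (32.6%) and 1 to 7 with 1 library left out (7.97% to 15.3%). It was 2 with only the compared groups, for which the share of all genes was not worked out. With 1 library left out the other counts ran from 21 to 26 higher in E20/p53 against E20, 20 to 28 lower in E20 against p53 and 35 to 37 higher in E20 against WT, and stayed at 39 higher in p53 and E20/p53 against WT. The share of all tested genes was not worked out for every one of these fits. No sign of a named change reversed under any alternative run. The causes were not tested. Total reads as the scaling moved the median log2 change of all genes by 0.11 in E20/p53 against E20, -0.14 in p53 against WT and -0.17 in E20 against WT. It gave 4510 higher and 2465 lower genes in E20/p53 against E20, where the deposited scaling gave 3502 and 2989, and 3563 and 4970 in E20 against WT, where it gave 4412 and 4016, with 28 and 34 members higher. Deviations of same-numbered libraries from their group means correlated at -0.054 to 0.074. In E20 and E20/p53 these deviations hold the difference between the blocks, so they cannot show whether replicate numbers pair libraries there. In p53 against WT, where each group is a single block, the correlations were -0.027 to 0.063. With the replicate block 26 members were higher in E20/p53 against E20 (25.8% of all tested genes). In E20/p53 against p53, 8 were lower (20.7% of all), 4 of them among the 7 reported. In E20 against p53, 27 were lower (19.4% of all), 25 of them among the 28. Against WT, 39, 37 and 38 were higher in p53, E20 and E20/p53, where 4738, 4231 and 4096 of the 15235 genes were.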

Other observations

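The gene models of some members share bases with neighbours, which bears on reads counted without strand. Of the 39 members, 10 have more than 10% of the principal transcript inside another gene and 15 have some overlap. The largest value is that of Fen1, with 83.9% for Tmem258 and Gm10143 added together on the other strand, followed by Gins2 with 70.7% inside Gse1. Overlaps with different neighbours were added, so bases shared by both neighbours count more than once. This bears on Fen1 and on Mcm7 (13.0% for Ap4m1 and Cops6), the members with several such neighbours. Fen1 averaged 60.7 ± 2.86 and 85.7 ± 2.35 CPM in the E20/p53 blocks and 98.0 ± 2.55 CPM in p53, while Tmem258 averaged 53.8 ± 1.04 and 84.2 ± 5.02 CPM in the E20/p53 blocks and 71.3 ± 3.95 CPM in p53 (n = 3 for each block). Gins2 averaged 22.6 ± 1.63 and 36.9 ± 3.19 CPM in the E20/p53 blocks, and Gse1 30.2 ± 2.25 and 50.3 ± 1.18 CPM. Named pseudogenes exist for Pcna and Tyms. Whether reads were shared was not tested.

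In CPM per kb other complexes spanned different ranges. Of Gins1, Gins2 and Gins3 the highest exceeded the lowest 1.52-fold in p53 to 2.64-fold in E20/p53 1-3, with Gins1 the highest in every block. Gins4 is not among the 39 and was left out. Without division by length Gins1 was instead the lowest of them in every block but E20 4-6. The transcript lengths used were 1.087 kb for Gins1, 3.9 kb for Gins2 and 2.519 kb for Gins3. Among the clamp loader genes Rfc2 to Rfc5, Rfc2 was the lowest per kb in every block, and the highest subunit exceeded it 2.47-fold to 3.51-fold. Without division by length Rfc2 was instead the highest of them in every block. Its place per kb rests on a transcript length of 4.995 kb, against 1.317, 1.228 and 2.796 kb for Rfc3, Rfc4 and Rfc5. Per kb the CAF-1 genes Chaf1b and Chaf1a were closest in E20/p53, where Chaf1b exceeded Chaf1a 1.10-fold and 1.09-fold. The values were 1.56-fold and 1.46-fold in the E20 blocks, 1.28-fold in p53 and 1.61-fold in WT. This order rests on lengths of 1.922 kb for Chaf1b and 5.535 kb for Chaf1a. Without division by length Chaf1a was the higher in every block, and the genes were furthest apart in E20/p53 and closest in WT. Chaf1a and Chaf1b stood at 106 and 40.5 CPM in E20/p53 1-3, and at 51.3 and 28.7 CPM in WT.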
